A study of Mus musculus with 4 samples.

Results

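Genes in common use as markers of stem cells and intestinal crypts, Sox2, Cd44, Aldh1a1, Klf4, Klf5, Sox9, Lgr5, Ascl2, Prom1 and Pou5f1, were examined in MC38 cells. They were chosen by name, with earlier results of these data known. They make up 10 of the 27179 genes counted, and all 10 were found in the table. MC38 is a mouse colon carcinoma cell line, and RNA was sequenced from 1 culture in each of 4 conditions that cross IFN-γ, a cytokine made by activated T cells, with oxygen. The 4 libraries were control in normoxia (20% oxygen), IFN-γ in normoxia, control in hypoxia (1.5% oxygen) and IFN-γ in hypoxia. The methods give 5 ng/mL of IFN-γ for 24 h as the usual treatment, and the labels give the genotype as WT and name no other treatment. With 1 library per condition no difference below has a replicate of its own. The p-values rest on an additive model in which 2 libraries with a stimulus are set against 2 without it. Where 2 libraries are said to lie above, below or apart from the other 2, this describes the values and is not a test. The share of all genes that separate in this way is not given.

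SOX2, KLF4 and OCT4 (the product of Pou5f1) are transcription factors that together hold embryonic cells in a pluripotent state. In the intestine, stem cells at the base of each crypt divide under Wnt signals and carry the R-spondin receptor LGR5 and the Wnt-driven factor ASCL2, SOX9 and KLF5 are factors of the proliferating crypt, and KLF4 is highest in cells that have left the cycle. CD44, a receptor for the matrix sugar hyaluronan, PROM1 (CD133), a membrane glycoprotein, and ALDH1A1, an enzyme that oxidises retinal to retinoic acid, are used to enrich tumor cells with stem-like behaviour.

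The 4 libraries held 34302971 to 34537939 counts. The 5 hypoxia control genes (Car9, Bnip3, Ndrg1, Egln3 and Vegfa) were all called higher in hypoxia, and the 5 IFN-γ control genes (Gbp2, Psmb9, Irf1, Cd274 and Cxcl10) were all called higher with IFN-γ. Defining markers of colon epithelium were at or near 0, with Cdh1, Cdx1 and Cdx2 at 0 in every library and Epcam and Krt18 at 2 counts or fewer, so an epithelial identity was not seen at the RNA level. All 11 epithelial markers together reached 3.70 to 5.98 CPM (counts scaled to a common library size), against 104 to 140 CPM for 7 fibroblast-type markers, 5.05 to 7.03 CPM for 6 immune markers and 0.904 to 1.56 CPM for 4 endothelial markers. Most of the fibroblast-type sum came from Col3a1 and Pdgfra, so it does not speak for that list as a whole.

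Of the 10 genes, 6 were expressed at a level that could be tested, as were 13580 of all 27179 genes. Cd44, Sox2, Klf4, Sox9, Klf5 and Aldh1a1 passed edgeR's filter on low counts. The other 4, Lgr5, Ascl2, Prom1 and Pou5f1, had 2 counts or fewer in every library, below the 3 counts that a reading of 0 still allows, which is 0.0866 to 0.0876 CPM here. Of the tested genes, Aldh1a1 passed the threshold for both stimuli, Sox9 for hypoxia alone, and Cd44, Sox2, Klf4 and Klf5 for neither. Each of these calls was lost in some alternative analyses, and that of Sox9 was kept in 1 of 7. Genes with 2 counts outnumbered genes with 1 count in every library (1058 to 1091 against 475 to 534), as they would if both reads of a fragment were counted separately, and intervals from counting error may therefore be too narrow. They were repeated with the counts halved, a choice made after the data were seen.

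The upstream sequences of Aldh1a1, Klf4 and Cd44 are shown first, because 3 short motifs linked in textbooks to the stimuli were searched in them. Each sequence is the 250 bases before a RefSeq transcript start in GRCm38.p6, on the strand of the gene and 5′ to 3′. The motifs were ACGTG and GCGTG, the core of the element bound by HIF factors in hypoxia, and TTCNNNGAA, the gamma-activated element, each read on both strands. Capitals mark ACGTG on either strand. Aldh1a1 has a start at the 5′ end of the gene (chr19:20492333-20492582, + strand) and one further downstream (chr19:20601718-20601967, + strand). Klf4 (chr4:55532476-55532725, − strand) and Cd44 (chr2:102901666-102901915, − strand) have 1 entry each.
Aldh1a1, upstream start: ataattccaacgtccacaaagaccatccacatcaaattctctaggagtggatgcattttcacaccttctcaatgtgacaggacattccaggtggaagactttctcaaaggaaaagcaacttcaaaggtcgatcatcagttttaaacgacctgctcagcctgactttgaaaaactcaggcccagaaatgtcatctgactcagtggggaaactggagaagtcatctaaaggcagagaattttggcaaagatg
Aldh1a1, downstream start: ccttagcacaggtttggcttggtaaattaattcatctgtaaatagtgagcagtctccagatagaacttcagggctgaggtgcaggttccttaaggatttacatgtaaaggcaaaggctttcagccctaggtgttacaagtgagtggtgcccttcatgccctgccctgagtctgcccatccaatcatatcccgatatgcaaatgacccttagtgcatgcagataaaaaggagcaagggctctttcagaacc
Klf4: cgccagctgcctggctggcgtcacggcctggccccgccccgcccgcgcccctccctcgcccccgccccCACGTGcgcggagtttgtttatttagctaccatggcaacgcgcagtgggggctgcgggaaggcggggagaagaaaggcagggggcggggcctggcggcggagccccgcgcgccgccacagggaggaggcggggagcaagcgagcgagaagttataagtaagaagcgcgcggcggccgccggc
Cd44: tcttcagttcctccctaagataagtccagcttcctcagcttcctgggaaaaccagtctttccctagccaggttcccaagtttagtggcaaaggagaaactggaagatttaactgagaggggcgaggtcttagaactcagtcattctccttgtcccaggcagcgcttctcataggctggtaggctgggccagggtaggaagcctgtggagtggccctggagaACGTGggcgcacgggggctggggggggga
Neither Aldh1a1 window held any of the 3 motifs. The Klf4 window held CACGTG, which contains ACGTG on each strand with the 2 matches overlapping, and the Cd44 window held ACGTG 1 time. Among 32851 upstream windows of the same length, 16.6% held ACGTG, 28.2% GCGTG and 7.02% TTCNNNGAA, so a match to the first of these is common. ACGTG or GCGTG was held by 38.6%. The windows of Sox2 and Prom1 held none of the 3 motifs. The Ascl2 window held ACGTG 1 time and GCGTG 3 times, and the downstream Pou5f1 window held GCGTG 1 time. No upstream sequence was available for Klf5, Sox9 and Lgr5. A match describes the letters only, and the absence of one covers only these 250 bases.

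Cd44 had the highest level of the 10 genes once CPM was divided by exon length, with a mean of 56.4 CPM per kilobase and rank 978 among 13120 tested genes with a known length. Sox2 followed at 21.4 CPM per kilobase (rank 2703), then Klf4 at 12.7 (rank 4128), Sox9 at 6.25 (rank 6402), Klf5 at 2.96 (rank 8511) and Aldh1a1 at 0.299 (rank 11789). The order was the same in every library, because the lowest value of each of the 6 genes lay above the highest value of the next. The steps between neighbouring means ran from 1.69-fold, between Sox2 and Klf4, to 9.90-fold, between Klf5 and Aldh1a1. For 5 of the 6 genes the libraries differed by less than these steps, and the highest library exceeded the lowest by 1.11-fold for Cd44, 1.21-fold for Klf5, 1.24-fold for Sox2, 1.28-fold for Klf4 and 1.38-fold for Sox9. For Aldh1a1, the gene with the fewest reads of the 6, the same ratio was 4.55.

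**Figure D1:**
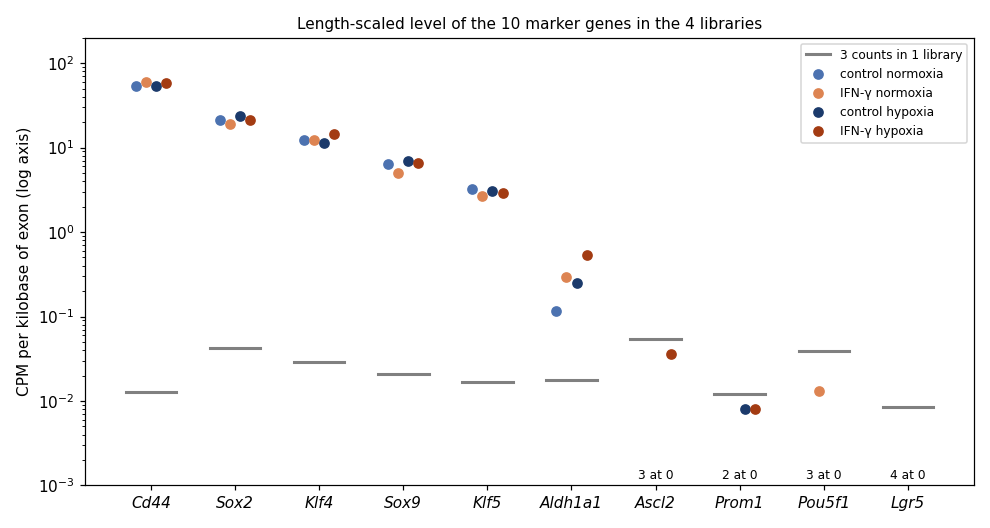
CPM per kilobase of exon on a log axis for the 10 marker genes, 1 point per library, with a grey bar at the level of 3 counts in a library. Cd44, Sox2, Klf4, Sox9, Klf5 and Aldh1a1 form separate steps from 56.4 down to 0.299 on average, and every point of Ascl2, Prom1 and Pou5f1 that is above 0 lies under its grey bar, as does Lgr5 with 4 libraries at 0.

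The pluripotency factors differed in whether they were present at all. Pou5f1 (chr17:35506032-35510777, + strand) had 1 count in IFN-γ normoxia and 0 in the other libraries. Sox2, a gene with a single exon (chr3:34649995-34652461, + strand), had 1514 counts in control normoxia, 1354 in IFN-γ normoxia, 1694 in control hypoxia and 1513 in IFN-γ hypoxia. Sox2 was lowest with IFN-γ in normoxia and highest in hypoxia without IFN-γ, and the library with both stimuli was within 1 count of the library with neither. In CPM, the libraries with and without IFN-γ overlapped, while both hypoxia libraries (49.0 without and 44.2 with IFN-γ) were above both normoxia libraries (43.7 and 39.5), with a narrow gap. The long noncoding transcript Sox2ot, which spans Sox2 on the same strand, had 33 to 48 counts.

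The additive fit gave Sox2 a log2 change of -0.15 ± 0.0748 (SE) with IFN-γ and of 0.16 ± 0.0748 with hypoxia. Neither passed the quasi-likelihood test of edgeR, with p-values adjusted after Benjamini and Hochberg over all 13580 genes tested, with adjusted p = 0.346 and 0.131. With both stimuli against neither, the log2 change of Sox2 was 0.01 with a 95% counting interval from -0.09 to 0.12. The change with IFN-γ differed between hypoxia and normoxia by 0.00 on the log2 scale, with an interval from -0.15 to 0.14.

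Klf4, located at chr4:55527137-55532475 on the − strand, had 1302 counts in control normoxia, 1295 in IFN-γ normoxia, 1210 in control hypoxia and 1531 in IFN-γ hypoxia. Only the library that received both stimuli stood above the others. The log2 change with IFN-γ was 0.01 in normoxia, with a counting interval from -0.11 to 0.12, and 0.35 in hypoxia, with an interval from 0.24 to 0.46. The difference between these changes was 0.35, with an interval from 0.19 to 0.50, or from 0.13 to 0.57 with the counts halved. This is a counting interval and not a test between cultures. Of 10443 well-counted genes (100 counts or more in each library), 34.5% had such an interval that excluded 0, and the central 95% of the differences ran from -0.36 to 0.40, a range that holds the value of Klf4. The additive fit has no term for such a departure and takes its spread from all genes pooled. The SE of Klf4 therefore does not reflect its own departure. In that fit the log2 change of Klf4 was 0.18 ± 0.0767 with IFN-γ and 0.07 ± 0.0767 with hypoxia. The adjusted p was 0.199 and 0.605 in edgeR's quasi-likelihood test.

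**Figure D2:**
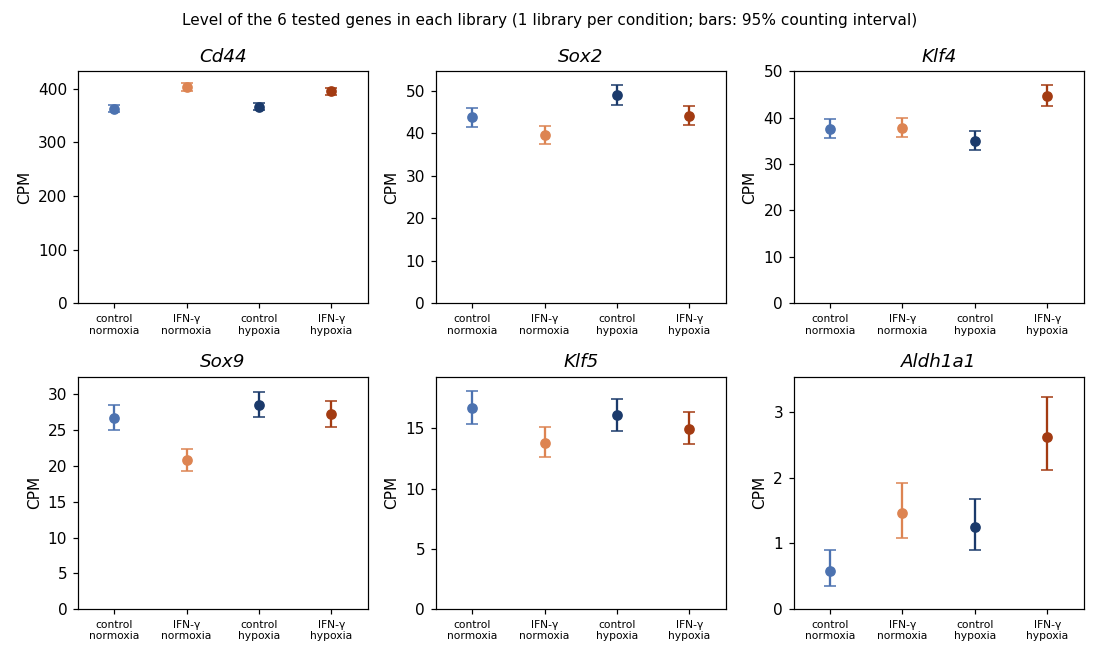
CPM of the 6 tested genes in each of the 4 libraries, with bars for the 95% counting interval and axes that start at 0. Aldh1a1 is lowest in the control normoxia library and highest with both stimuli, Klf4 is highest with both stimuli, and Sox9 is lowest with IFN-γ in normoxia.

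Of the genes that mark the crypt, Lgr5 and Ascl2 were essentially without reads. Lgr5 (chr10:115450314-115587780, − strand) had 0 counts in all 4 libraries, and Ascl2 (chr7:142966822-142969264, − strand) had 2 counts in IFN-γ hypoxia and 0 elsewhere. Sox9 and Klf5 were expressed in every library. The crypt base signature is therefore not seen as a whole, and the members that were present are also expressed in many other cell types.

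Sox9 (chr11:112782210-112787757, + strand) had 926 counts in control normoxia, 712 in IFN-γ normoxia, 987 in control hypoxia and 933 in IFN-γ hypoxia. Its low value came from a single library, IFN-γ in normoxia, while the other 3 lay between 926 and 987. In CPM, both hypoxia libraries (28.6 without and 27.2 with IFN-γ) were above both normoxia libraries (26.7 and 20.8), with a narrow gap. The additive fit gave a 1.18-fold increase with hypoxia (log2 0.24 ± 0.0847), with adjusted p = 0.0356 in edgeR's quasi-likelihood test. This call was kept in 1 of 7 alternative analyses, where the adjusted p ran from 0.0480 to 0.485. Without IFN-γ the hypoxia change was 0.09, with a counting interval from -0.04 to 0.23, and with IFN-γ it was 0.39, with an interval from 0.25 to 0.53, so the increase rests on the IFN-γ normoxia library.

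Read as an IFN-γ effect, the same 4 values gave Sox9 a log2 change of -0.36 in normoxia (interval -0.51 to -0.22) and of -0.07 in hypoxia (interval -0.20 to 0.06). The additive estimate was -0.21 ± 0.0847, with adjusted p = 0.151 in edgeR's quasi-likelihood test. The changes with IFN-γ differed between the oxygen levels by 0.30 (interval 0.11 to 0.49, or 0.03 to 0.57 with the counts halved), again inside the central range of well-counted genes. The genes with the pattern most like that of Sox9 over the 4 libraries, of the well-counted genes, were Akap17b, Magi1 and Gstm1. Their Euclidean distances in centred log2 CPM were 0.0208, 0.0260 and 0.0366. Akap17b, for example, had 267, 202, 282 and 264 counts in the order used above. Counting error enters these distances too, and their order was not tested against it.

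Klf5, a Krüppel-like factor at chr14:99298691-99313412 on the + strand, had 578 counts in control normoxia, 474 in IFN-γ normoxia, 556 in control hypoxia and 513 in IFN-γ hypoxia. Both IFN-γ libraries were below both control libraries. The additive log2 change with IFN-γ was -0.19 ± 0.103, and it did not pass edgeR's quasi-likelihood test (adjusted p = 0.424). The counting interval excluded 0 in normoxia (log2 -0.27, from -0.45 to -0.09) and included 0 in hypoxia (-0.10, from -0.28 to 0.07), while the difference between them, 0.17, had an interval from -0.08 to 0.41. For hypoxia the additive change was 0.03 ± 0.103 (adjusted p = 0.900 in the same edgeR test).

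Among the markers used to sort stem-like tumor cells, Cd44 and Prom1 were at opposite ends. Prom1 (chr5:43993621-44102047, − strand) had 2 counts in each hypoxia library and 0 in each normoxia library, which is under the floor in all 4. Cd44 (chr2:102811141-102901669, − strand) had 12548 counts in control normoxia, 13829 in IFN-γ normoxia, 12673 in control hypoxia and 13544 in IFN-γ hypoxia. The 2 IFN-γ libraries of Cd44 did not overlap with the 2 control libraries, and hypoxia made little difference on either side.

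The additive log2 change of Cd44 with IFN-γ was 0.13 ± 0.0515, a 1.10-fold difference, with adjusted p = 0.135 in edgeR's quasi-likelihood test. At this depth counting error is small, and the intervals of the single pairs excluded 0 in normoxia (0.15, from 0.12 to 0.19) and in hypoxia (0.11, from 0.07 to 0.14). With hypoxia the additive change was -0.01 ± 0.0515 (adjusted p = 0.963 in the edgeR test). Gene-level counts do not separate the splice variants of Cd44.

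Aldh1a1 had the largest changes of the 6 tested genes, at a low level. It lies at chr19:20492583-20643463 on the + strand and had 20 counts in control normoxia, 50 in IFN-γ normoxia, 43 in control hypoxia and 90 in IFN-γ hypoxia, or 0.578, 1.46, 1.24 and 2.63 CPM. Both IFN-γ libraries were above both control libraries, while the hypoxia and normoxia libraries overlapped. In these bulk cultures, more cells with the transcript and more transcript per cell cannot be told apart.

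IFN-γ raised Aldh1a1 2.26-fold in the additive fit (log2 1.18 ± 0.326), with adjusted p = 0.00686 in edgeR's quasi-likelihood test. Hypoxia raised it 1.93-fold (log2 0.95 ± 0.324), with adjusted p = 0.0284 in the same edgeR test. The IFN-γ call was kept in 5 of 7 alternative analyses and was lost with DESeq2 (adjusted p = 0.693) and when oxygen was left out of the model (0.755). The hypoxia call was kept in 5 of the 6 alternatives that gave an adjusted p. These 5 were edgeR quasi-likelihood fits, with adjusted p from 0.0266 to 0.0479. The hypoxia call was lost when IFN-γ was left out of the model (0.473), while DESeq2 gave no adjusted p.

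The single pairs of Aldh1a1 pointed the same way. With IFN-γ the log2 change was 1.31 in normoxia (interval 0.56 to 2.16) and 1.07 in hypoxia (0.54 to 1.64), and the difference between them was -0.24 with an interval from -1.15 to 0.66. With hypoxia it was 1.09 without IFN-γ (0.31 to 1.95, or -0.04 to 2.35 with the counts halved) and 0.84 with IFN-γ (0.33 to 1.38). Both stimuli together gave 4.46-fold more than neither (log2 2.16, from 1.47 to 2.96).

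**Figure D3:**
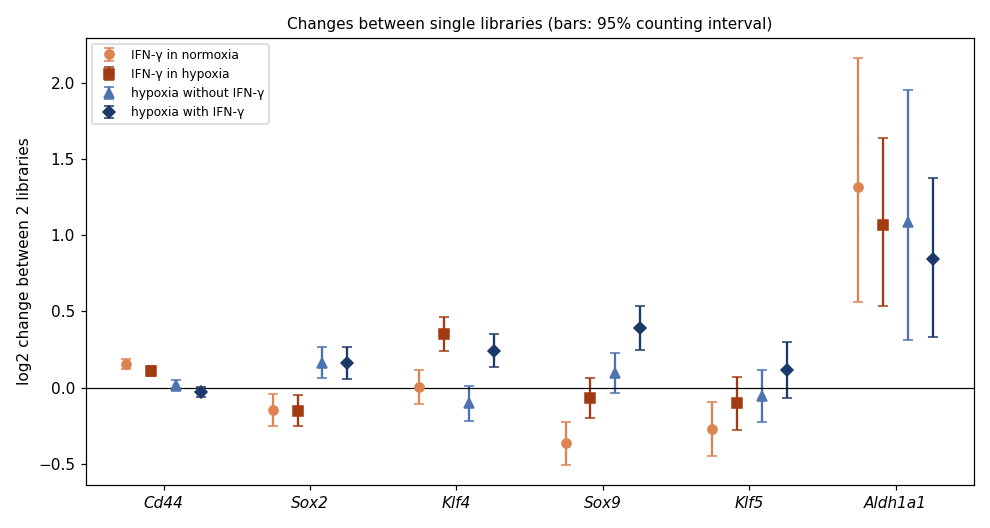
log2 change between single libraries for the 6 tested genes, with bars for the 95% counting interval and 1 symbol for each of the 4 pairs. All 4 pairs of Aldh1a1 lie above 0, between 0.84 and 1.31, while the pairs of the other 5 genes lie between -0.36 and 0.39.

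Aldh1a7, a close copy of Aldh1a1 on the same chromosome, had 14, 10, 18 and 16 counts in the same order and did not pass the test for either stimulus. Reads could be exchanged between the copies in part, since 5.70% of the 31-base words of Aldh1a1 transcripts also occur in another gene. Summed over both genes the counts were 34, 60, 61 and 106, and the log2 change was 0.82 with IFN-γ in normoxia (interval 0.20 to 1.49) and 0.81 in hypoxia (0.34 to 1.29). An increase thus remained in the sum, smaller than for Aldh1a1 alone.

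The genes with the pattern nearest to Aldh1a1 over the 4 libraries, of the well-counted genes, were Ifi204, Ctso and Ifi211. Their Euclidean distances in centred log2 CPM were 0.289, 0.356 and 0.517. The counting error of Aldh1a1, at 20 to 90 counts, enters these distances, and their order was not tested against it. Ifi204, an interferon-inducible gene of the p200 family, had 1513, 3528, 2708 and 5161 counts, and Ctso, which encodes a cathepsin, had 182, 380, 308 and 572. The p200 genes are similar in sequence, so their counts are uncertain. One epithelial marker, Cdh17, an intestinal cadherin, was also higher with IFN-γ (15, 62, 21 and 120 counts, log2 2.32 ± 0.342, adjusted p = 6.24e-10 in edgeR's quasi-likelihood test). The 11 epithelial markers summed to 3.81, 4.43, 3.70 and 5.98 CPM in the same order, and their part in the Aldh1a1 result was not tested.

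Counted together, IFN-γ raised 1 of the 6 tested genes, where 4.76% of all tested genes were raised, and lowered none, where 1.10% were lowered. At an unadjusted p under 0.05 in edgeR, 3 of the 6 (Aldh1a1, Cd44 and Klf4) were higher and 2 (Sox2 and Sox9) lower with IFN-γ. The same threshold held for 1897 of all 13580 tested genes in either direction, and DESeq2 with adjustment called none of the 6. Hypoxia raised 2 of the 6, where 8.21% of all tested genes were raised, and lowered none, where 6.83% were lowered. In hypoxia, 3 members (Sox2, Aldh1a1 and Sox9) were higher and none lower at an unadjusted p under 0.05 in edgeR. That threshold held for 3595 of all 13580 tested genes in either direction. DESeq2 with adjustment called no member in either direction. The median log2 change of the 6 genes was -0.01 with IFN-γ and 0.12 with hypoxia, and over all tested genes it was -0.01 and 0.00. With 6 genes these counts are too small to set the group apart from the background.

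The single pairs gave more intervals that excluded 0, as they did across the table. With IFN-γ in normoxia this held for 5 of the 6 genes (34.9% of all tested genes) and in hypoxia for 4 (37.7%). With hypoxia it held for 2 genes without IFN-γ (45.3%) and for 4 with IFN-γ (45.8%). With both stimuli against neither it held for Cd44, Aldh1a1 and Klf4 (47.6%). With the counts halved, the first count fell from 5 to 4, since the interval of Sox2 with IFN-γ in normoxia (-0.30 to 0.0045) included 0, and the count for hypoxia without IFN-γ fell from 2 to 1, since that of Aldh1a1 did, while the other 3 counts were 4, 4 and 3 as before. Directions were mixed in each IFN-γ pair, with Cd44 and Aldh1a1 higher and Sox2 lower in both.

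The wider neighbourhood of these markers was read from 11 lists of related genes, 174 genes in all, of which 102 were tested and 52 had 3 counts or fewer in every library. IFN-γ raised 6 of the 102 tested (5.88%) and lowered none, and DESeq2 after adjustment called none lower. Hypoxia raised 8 (7.84%) and lowered 7 (6.86%). These shares are close to the background of all tested genes given above, and the medians were -0.04 with IFN-γ and 0.06 with hypoxia. At an unadjusted p under 0.05 in edgeR, 10 were higher and 6 lower with IFN-γ, and 20 were higher and 11 lower with hypoxia. Of all 13580 tested genes, 1897 and 3595 passed that threshold in either direction.

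In the pluripotency list, 10 of 19 genes were at or under the floor, among them Nanog, Zfp42, Sall4, Utf1, Fgf4 and Nr5a2, and Lin28a and Dppa5a had 2 counts at most. Of 6 tested, 1 was raised by hypoxia, Tet1, which encodes an enzyme that oxidises methylated cytosine, at 6, 0, 20 and 12 counts. Of 17 other Sox genes, 3 were tested, and none of them passed edgeR's quasi-likelihood test for either stimulus. Sox12 had the most counts of these (1548 to 1676). In the Klf list, 11 of 15 genes were tested, none passed the test for IFN-γ, and Klf16 fell with hypoxia (log2 -0.19, adjusted p = 0.0368 in the edgeR test).

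In the list of other crypt and stem markers, 12 of 16 genes were tested and Olfm4, Tnfrsf19 and Kcnq1 were at or under the floor. Hopx, a homeodomain-only protein used as a marker of reserve stem cells, had 550 counts in control normoxia, 720 in IFN-γ normoxia, 576 in control hypoxia and 728 in IFN-γ hypoxia. Both IFN-γ libraries were above both control libraries, and Hopx rose with IFN-γ by 0.38 ± 0.0955 on the log2 scale (adjusted p = 0.0021 in edgeR's quasi-likelihood test). With hypoxia, Ephb3, an ephrin receptor of the crypt, rose (log2 0.53, adjusted p = 0.0347) and Cdca7 fell (log2 -0.27, adjusted p = 8.94e-05) in the same edgeR test. Bmi1 and Lrig1, also used as reserve stem cell markers, were well counted (2967 to 3159 and 2008 to 2349 counts) and did not pass the test for either stimulus.

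Among receptors and regulators of Wnt and R-spondin signals, 9 of 12 genes were tested, and the ligands Rspo1, Rspo2 and Rspo4 were at or under the floor. None passed edgeR's quasi-likelihood test for IFN-γ. Fzd7 was higher with IFN-γ by 0.21 in normoxia and 0.22 in hypoxia (log2), with adjusted p = 0.0590 in that test. With hypoxia, the Wnt receptor Fzd7 rose from 1298 and 1486 counts in the normoxia libraries to 1897 and 2185 in the hypoxia libraries (log2 0.55 ± 0.0733, adjusted p = 4.18e-12 in edgeR's quasi-likelihood test). The co-receptor Lrp5 also rose (log2 0.49, adjusted p = 1.34e-11), and Znrf3, a ligase that removes Wnt receptors from the surface, fell (log2 -0.29, adjusted p = 0.0376) in the same edgeR test. Of 11 Wnt target genes 8 were tested. Ccnd1, which encodes cyclin D1, rose with IFN-γ (log2 0.26, adjusted p = 9.09e-06) and fell with hypoxia (log2 -0.20, adjusted p = 0.000758) in edgeR. Axin2, a general readout of Wnt signals, had 18 to 34 counts and did not pass the test for either stimulus.

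Of 16 genes of the fetal-like and regenerative intestinal state, 12 were tested. Ly6a, which encodes SCA-1, rose with IFN-γ from 44 and 40 counts to 341 and 474 (log2 3.28 ± 0.183, adjusted p = 1.15e-68 in edgeR's quasi-likelihood test), and 31.9% of its 31-base words occur in other genes, so its counts are uncertain. Ly6a is also known as an interferon-inducible gene. Spp1, which encodes the CD44 ligand osteopontin, rose by 0.27 with IFN-γ (adjusted p = 3.41e-07 in the edgeR test). Il33 rose with hypoxia (22, 26, 56 and 66 counts, log2 1.34, adjusted p = 0.00219 in the edgeR test). Of 13 other surface and efflux markers of tumor stem cells 9 were tested. Itga6 rose with IFN-γ (log2 0.27, adjusted p = 0.00845), Itgb1 rose with hypoxia (log2 0.15, adjusted p = 0.0131) and the efflux pump gene Abcb1b fell with hypoxia (log2 -0.41, adjusted p = 8.66e-11) in edgeR. Epcam, Cd24a and Cxcr4 were at or under the floor.

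**Figure D4:**
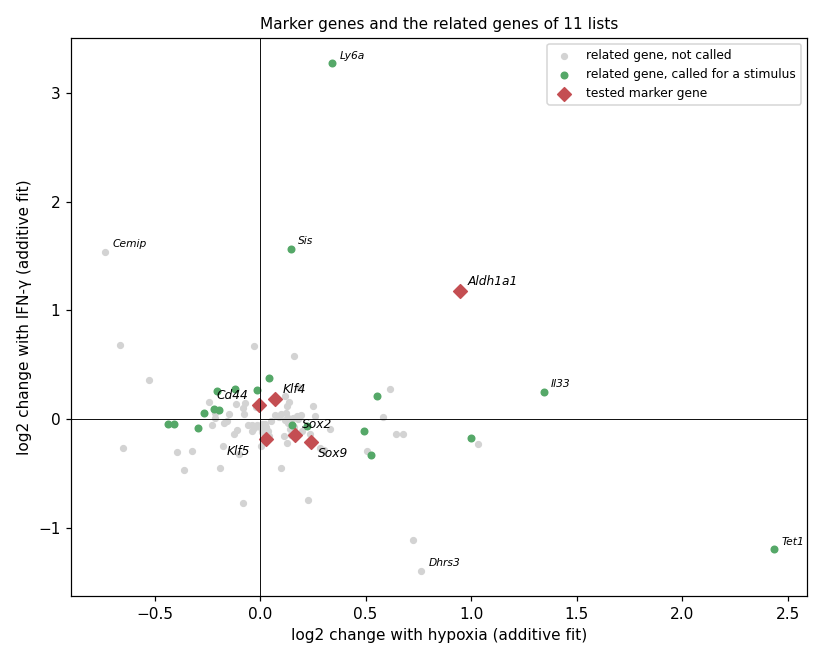
log2 change with IFN-γ against log2 change with hypoxia in the additive fit, for the 6 tested marker genes (red) and the tested related genes (green where called for a stimulus, grey where not). Most genes lie near 0 on both axes, and Aldh1a1, at 0.95 and 1.18, stands apart from the other 5 marker genes.

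Genes of hyaluronan and CD44 processing were nearly all expressed, with 13 of 16 tested. None passed edgeR's quasi-likelihood test for IFN-γ. Hyal2, a hyaluronidase, fell with hypoxia (log2 -0.44, adjusted p = 4.57e-06 in edgeR), and Hyal1 rose at 26 to 59 counts (log2 0.998, adjusted p = 0.0344 in edgeR), with 50.7% of its words shared with other genes. Esrp1 and Esrp2, epithelial splicing factors known to act on Cd44, had 13 counts or fewer.

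In the list of aldehyde dehydrogenases and retinoid genes, 17 of 24 were tested and none passed edgeR's quasi-likelihood test for IFN-γ. The IFN-γ call of Aldh1a1 was thus not matched by a call for Aldh1a7, Aldh2, Aldh3a1 or the other tested members, although the differences between genes were not tested. Aldh1a2 and Aldh1a3, the other retinal-oxidising members, had 7 counts or fewer in every library. With hypoxia, Aldh1l2, a mitochondrial folate enzyme, rose (log2 0.22, adjusted p = 0.0067) and Rdh10, which makes retinal from retinol, fell (log2 -0.22, adjusted p = 0.0405) in edgeR.

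Of 16 genes of differentiated intestinal cells, 9 were at or under the floor, Fabp1, Tff3, Spdef and Atoh1 among them, and 3 were tested. Sis, which encodes sucrase-isomaltase of the enterocyte surface, had 91 counts in control normoxia, 256 in IFN-γ normoxia, 95 in control hypoxia and 292 in IFN-γ hypoxia. The libraries with IFN-γ did not overlap with those without it, and Sis rose with IFN-γ by 1.57 ± 0.172 on the log2 scale (adjusted p = 4.76e-18 in edgeR's quasi-likelihood test). Krt20 and Aqp8, the other tested genes, did not pass the test for either stimulus.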

How the data were processed

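RNA-seq of 4 MC38 libraries, 1 per condition, was used. Per the labels, poly-A RNA was made into strand-specific libraries and read from both ends on a DNBSEQ instrument. Reads were aligned with HISAT2, and the submitters' processing notes name featureCounts and mm10 without versions. The authors deposited whole-number counts per NCBI gene ID with no normalization, 34302971 to 34537939 per library. Symbols and coordinates came from RefSeq GRCm38.p6 (25275 of 27179 IDs matched), exon lengths and 31-base words from GENCODE vM21 transcripts of the same build.

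Counts were tested with edgeR 4.0.16 (R 4.3.3): TMM normalization (factors 0.993 to 1.01), filterByExpr with a minimum of 10 counts, an additive model of IFN-γ and oxygen with 1 residual degree of freedom per gene, and Benjamini-Hochberg adjustment at 0.05 over 13580 genes. Departures from additivity count as spread, which was pooled over all genes (the median prior degrees of freedom were infinite). The SE of a gene therefore does not follow its own departure. The common biological coefficient of variation was 4.71%. Pair changes are log2 CPM ratios with 0.5 counts added and 95% Clopper-Pearson intervals. Differences between pair changes have Poisson intervals. These intervals cover counting error only, and p-values may reflect technical spread. The script was tested on simulated data.

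The members and lists were chosen with earlier results of these data known. From each list, up to 3 called genes per stimulus and direction were named by the size of their change, if both pairs had 1 sign and the mean count was 50 or more, and genes at or under 3 counts. The others (Tet1, Il33, Hyal1, Axin2, Bmi1, Lrig1, Sox12, Krt20, Aqp8, Esrp1, Esrp2 and the uncalled Aldh genes) were named after their values were seen. Alternatives were DESeq2 1.42.0, its size factors, total counts, no filter, at least 10 counts in every library, leaving out the other stimulus, and counts halved. No column was without a sample.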

Additional observations from a re-analysis of the deposited data

Results flagged for a closer look

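Klf4 moved in opposite directions with hypoxia in the absence and the presence of IFN-γ. Its log2 change was -0.10 without IFN-γ (1302 to 1210 counts) and 0.24 with IFN-γ (1295 to 1531 counts), each from 1 library against 1. The counting interval of the first change, from -0.22 to 0.01, includes 0, and that of the second, from 0.14 to 0.35, does not. The difference between the 2 changes was not tested against the spread between cultures, since no condition has a replicate.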

How the results depend on the processing

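No paired analysis was possible because each condition has 1 library and the numbers in the sample titles mark conditions, not replicates. Leaving out a library would leave the additive fit with no residual degree of freedom. DESeq2's Wald test called 0 of the 6 markers raised by IFN-γ and 0 by hypoxia, 353 and 360 of all genes raised and 16 and 203 lowered, and 2 related genes raised and 4 lowered by hypoxia. With the other stimulus left out of the model, 0 markers were raised by either stimulus, 239 and 150 of all genes were raised and 3 and 26 lowered, 2 related genes were raised by IFN-γ, and 0 were raised and 0 lowered by hypoxia. The main analysis gave 1 and 2 markers raised, 647 and 1115 of all genes raised, 149 and 927 lowered, and 6 and 8 related genes raised and 7 lowered by hypoxia. The count of markers raised by hypoxia was 1 with DESeq2 size factors, total counts, no filter, or a minimum of 10 counts in each library, because Sox9 was lost (log2 0.23 to 0.24, adjusted p = 0.0652 to 0.135 in edgeR). With DESeq2 size factors, 99 of all genes were lowered by IFN-γ and 4 related genes by hypoxia. With no filter, 71 of all genes were lowered by IFN-γ, and 5 related genes were raised and 4 lowered by hypoxia. With a minimum of 10 counts in each library, 74 of all genes were lowered by IFN-γ. The log2 change of Cd44 with hypoxia turned from -0.01 to 0.000372 with the counts halved (adjusted p = 0.997 in edgeR), so it has no direction. In the additive fit, the log2 changes of the other 5 tested markers kept their sign under the 7 alternatives, and Aldh1a1 ranged from 1.15 to 1.20 with IFN-γ and from 0.93 to 0.97 with hypoxia. Between single libraries, total counts in place of TMM turned the sign of 2 changes near 0, Klf4 with IFN-γ in normoxia (0.0064 to -0.018) and Sox2 with both stimuli (0.015 to -0.0059), and of the difference between the IFN-γ changes of Sox2 (-0.0031 to 0.012). The cause of these shifts was not tested. Depth limits Aldh1a1 (20 to 90 counts) and leaves Lgr5, Ascl2, Prom1 and Pou5f1 undetectable below 3 counts.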

Other observations

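The fibroblast-type markers held values that no comparison above uses. Col3a1, a fibrillar collagen gene, had 2859 counts in control normoxia, 2373 in IFN-γ normoxia, 3238 in control hypoxia and 2233 in IFN-γ hypoxia, and fell with IFN-γ by 0.39 on the log2 scale (adjusted p = 1.98e-07 in edgeR's quasi-likelihood test). Pdgfra, a growth factor receptor of mesenchymal cells, had 1077 to 1341 counts and did not pass the test for either stimulus. The 7 fibroblast-type markers summed to 126, 110, 140 and 104 CPM in that order. The endothelial marker Pecam1 had 0, 10, 11 and 18 counts, and did not pass the test for either stimulus.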
